A study of Homo sapiens with 18 samples.

Results

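This account compares cells carrying guide 1 against OGDHL with cells carrying a control guide, both kept in DMSO, and covers 6 of the 18 libraries of the series. The 6 libraries were chosen by their labels alone: 3 labelled sgOGDHL_1 in DMSO and 3 labelled sgAAVS in DMSO. All cells were 16D, a castration-resistant prostate cancer line, and all carried lentivirus with Cas9 and a guide RNA, the controls included. The control guide targets AAVS, a safe-harbour site within PPP1R12C, and the vehicle and drug arms each lasted 6 weeks. The other 12 libraries were the same cells in 10 uM enzalutamide (3 with the control guide and 3 with guide 1) and cells with guide 2 against OGDHL in DMSO and in enzalutamide (3 each). The labels do not say whether a guide population is a clone, how many cells were edited, or whether replicates came from different cultures. The p-values therefore reflect variation among libraries alone, which may be technical. The spread behind them was estimated over all 18 libraries. As the guide 1 libraries in DMSO varied more than the controls, these p-values may be too low.

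OGDHL encodes a relative of OGDH, the E1 subunit of the 2-oxoglutarate dehydrogenase complex of the mitochondrial tricarboxylic acid (TCA) cycle. The complex oxidises 2-oxoglutarate to succinyl-CoA, and 2-oxoglutarate is also the cosubstrate of dioxygenases that demethylate histones and DNA and hydroxylate hypoxia-inducible factors. Enzalutamide is an antiandrogen, and androgen is the main growth signal of luminal prostate cells.

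Values are in TPM, a transcript abundance corrected for gene length and library total, after removal of rows with no gene name and of mitochondrially encoded (MT-) rows, with each library brought back to a sum of 1000000. Changes are differences of log2(TPM + 1), a scale that understates changes of low genes, tested with limma over 16694 genes with Benjamini-Hochberg adjustment. Sequencing depth is unknown, because TPM keeps no record of it. A gene was said to change in every library when its adjusted p was under 0.05 and all 3 guide 1 libraries lay above, or all 3 below, all 3 control libraries.

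OGDHL (ENSG00000197444, chromosome 10, 49734643 to 49762379, minus strand, GRCh38) was lower in each guide 1 library. It stood at 5.61, 5.73 and 5.50 TPM in the control libraries and at 2.30, 2.71 and 3.75 TPM in guide 1 replicates 1, 2 and 3. No guide 1 library reached the control range, and replicate 3 kept the highest level. OGDHL fell by 0.77 on the log2 scale (SE 0.10, adjusted p = 0.0011), from 5.61 ± 0.116 to 2.92 ± 0.747 TPM (SD, n = 3 each). In enzalutamide, against its own controls, guide 1 OGDHL stood at 3.07, 3.27 and 2.79 TPM against 9.20, 9.81 and 9.23 TPM, and fell by 1.37 (adjusted p = 7.4e-08). The difference of the 2 changes was -0.60 (adjusted p = 0.0048). Libraries labelled guide 2 had 7.66, 8.84 and 7.93 TPM in DMSO, above the controls they share with guide 1, and 5.20, 5.38 and 5.36 TPM in enzalutamide.

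**Figure D1:**
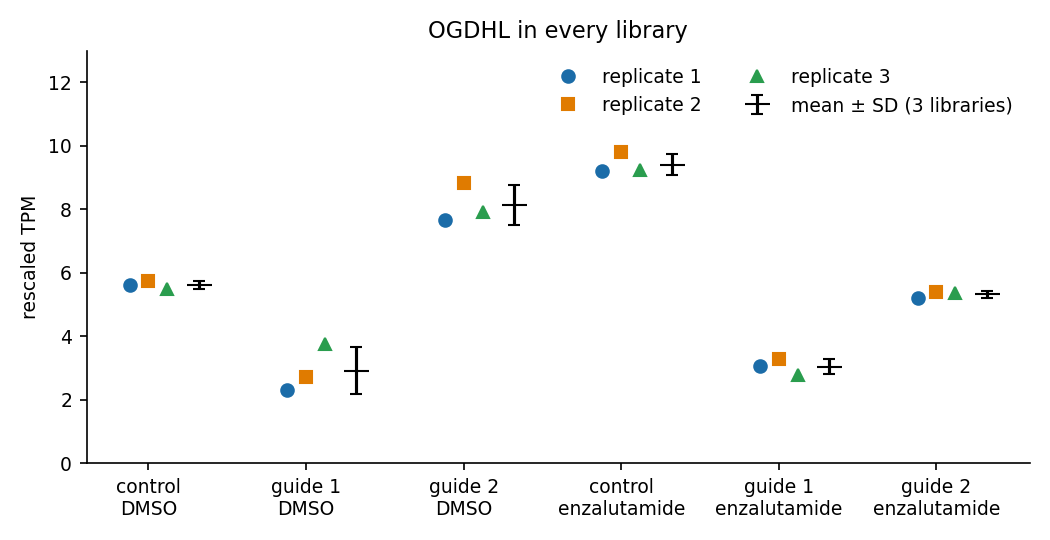
OGDHL level (rescaled TPM, linear axis from 0) in all 18 libraries by guide and treatment. Points are single libraries, and the black bars give mean ± SD over 3 libraries. The guide 1 libraries in DMSO lie between 2.30 and 3.75 TPM, all below the control libraries in DMSO.

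OGDH itself, the main E1 subunit, was at 28.2, 29.4 and 28.2 TPM in controls and 23.03, 27.4 and 29.4 TPM with guide 1 (change -0.11, adjusted p = 0.19). Its groups overlapped, and replicate 3 reached the highest control value. PPP1R12C, which holds the site of the control guide, had a change of -0.19 (adjusted p = 0.19), with replicate 3 above all 3 controls. Among the other parts of the complex, DLST, the E2 transferase, fell by 0.30 (adjusted p = 0.024) and DLD, the E3 dehydrogenase, rose by 0.21 (adjusted p = 0.019). In replicate 3 alone, however, DLST was 0.01 below and DLD 0.05 above the control mean. The related E1 gene DHTKD1 (-0.05) and the adaptor MRPS36 (-0.02) did not pass the test. The changes of OGDHL, DLST and DLD were each smallest in replicate 3, where that of OGDHL was still -0.48. After a correction for GC content DLD was at 0.025 (adjusted p = 0.39).

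The 3 guide 1 libraries stood apart from each other more than the controls did. Mitochondrially encoded rows took 73.8%, 69.9% and 57.2% of deposited TPM in guide 1 replicates 1, 2 and 3, against 53.6% to 55.4% in controls (exact permutation test of 3 against 3 libraries, two-sided, p = 0.1, the smallest this design allows). After rescaling, the SD of gene changes over 9731 genes at 5 TPM or more was 0.49, 0.35 and 0.13 in guide 1 replicates 1, 2 and 3, and 0.06 to 0.07 in the controls. Changes of replicates 1 and 2 correlated across genes at 0.89, while replicate 3 correlated at 0.18 and 0.27 with them. These are descriptions across genes, and all 3 libraries share the same controls.

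The shift of replicates 1 and 2 moved with the base composition of the transcript. In the lowest of 5 equal groups of genes by GC content (median 40.3% GC), the median change was 0.32, 0.22 and 0.06 in replicates 1, 2 and 3. In the highest group (median 62.1% GC), it was -0.53, -0.24 and 0.02. Across genes, the change correlated with GC at a Spearman rho of -0.71, -0.59 and -0.15, against -0.06, -0.34 and 0.40 in control libraries 1, 2 and 3. Low-GC transcripts were higher and GC-rich transcripts lower in 2 of the 3 guide 1 libraries, and replicate 3 showed little of this. The part of mitochondrial content, RNA quality or library preparation in this shift was not tested.

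**Figure D2:**
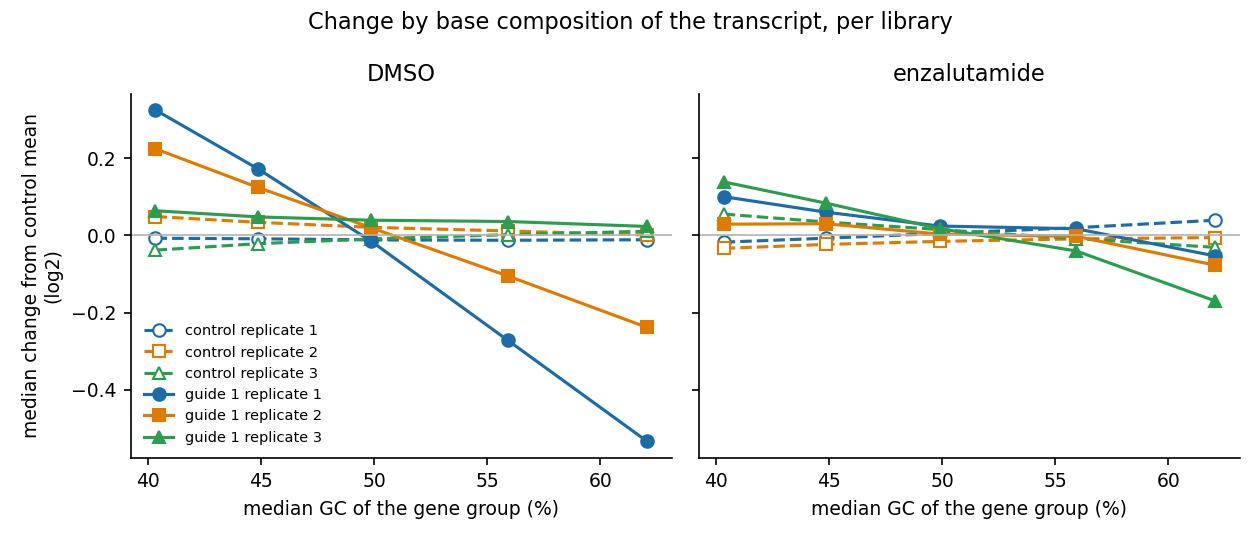
Median change from the mean of the matching controls (log2) in 5 equal groups of genes ordered by GC content of their transcripts (percent), for each control library (open symbols, dashed) and guide 1 library (filled, solid), in DMSO and in enzalutamide. In DMSO, replicates 1 and 2 slope from 0.32 and 0.22 to -0.53 and -0.24, and replicate 3 stays between 0.02 and 0.06.

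The starts of 4 coding sequences show the contrast in composition. They belong to the protein-coding genes, among the 24 of largest change named further on, with the lowest GC of the coding sequence on the rising side and the highest on the falling side. Each line gives the first 120 coding bases (GENCODE 29 transcripts, GRCh38), 5′ to 3′, with G and C in capitals.
MNS1: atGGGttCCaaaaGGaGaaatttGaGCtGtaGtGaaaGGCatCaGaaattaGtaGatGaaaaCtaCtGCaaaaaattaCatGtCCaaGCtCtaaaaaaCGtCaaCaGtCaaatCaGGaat
GULP1: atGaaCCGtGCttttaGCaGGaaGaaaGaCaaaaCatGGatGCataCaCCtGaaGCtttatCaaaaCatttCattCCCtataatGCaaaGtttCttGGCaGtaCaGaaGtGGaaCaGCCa
SOWAHD: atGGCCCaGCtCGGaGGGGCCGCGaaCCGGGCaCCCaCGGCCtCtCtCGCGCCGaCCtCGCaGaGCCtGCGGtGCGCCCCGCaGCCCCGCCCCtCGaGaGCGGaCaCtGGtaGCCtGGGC
TMEM160: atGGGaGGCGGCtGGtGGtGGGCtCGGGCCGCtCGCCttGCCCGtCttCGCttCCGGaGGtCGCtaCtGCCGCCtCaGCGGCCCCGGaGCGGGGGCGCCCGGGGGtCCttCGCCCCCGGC
G and C made up 42 and 47 of the 120 bases in MNS1 (chromosome 15, 56421544 to 56465137, minus strand) and GULP1 (chromosome 2, 188291669 to 188595931, plus strand). In SOWAHD (chromosome X, 119758613 to 119760164, plus strand) and TMEM160 (chromosome 19, 47045907 to 47048630, minus strand) they made up 92 and 94. The stretches show composition only. MNS1 and TMEM160 followed the shift, with changes of 1.03, 0.76 and 0.08 and of -2.14, -1.56 and -0.21 in replicates 1, 2 and 3. GULP1 and SOWAHD kept more of their change in replicate 3, at 0.39 and -0.61.

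By limma, 6140 of 16694 genes passed the test in DMSO (36.8%), 3984 higher (23.9%) and 2156 lower (12.9%) with guide 1, so that 64.9% of the calls were higher. With median-of-ratios scaling, 51.5% of 6190 called genes were higher, and on TPM as deposited, where the median change of all genes was -0.26 rather than 0.02, 7911 of 7946 were lower. Directions given here are therefore relative to the total of the named nuclear genes. Of the called genes, 4238 (25.4% of those tested) did not overlap between groups, 3062 higher (18.3%) and 1176 lower (7.04%). Fewer had a change of at least 0.25 in the least changed library: 321 genes (1.92%), 195 higher (1.17%) and 126 lower (0.755%). At 0.5 in the least changed library there were 72 (0.431%), 31 higher (0.186%) and 41 lower (0.246%). Of those 72, 41 were pseudogenes and 15 protein-coding. Counting of reads from near-identical copies is uncertain for pseudogenes, and they were passed over below. A fit of the 6 libraries alone called 0 genes by limma, with 3530 at an unadjusted p under 0.05 and a lowest adjusted p of 0.16. In that fit OGDHL had an adjusted p of 0.24 (unadjusted p = 0.0018). With replicate 3 as the only guide 1 library, 56 genes were called, 41 higher and 15 lower, its spread being taken from the other groups. Without replicate 3, 9775 were called.

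**Figure D3:**
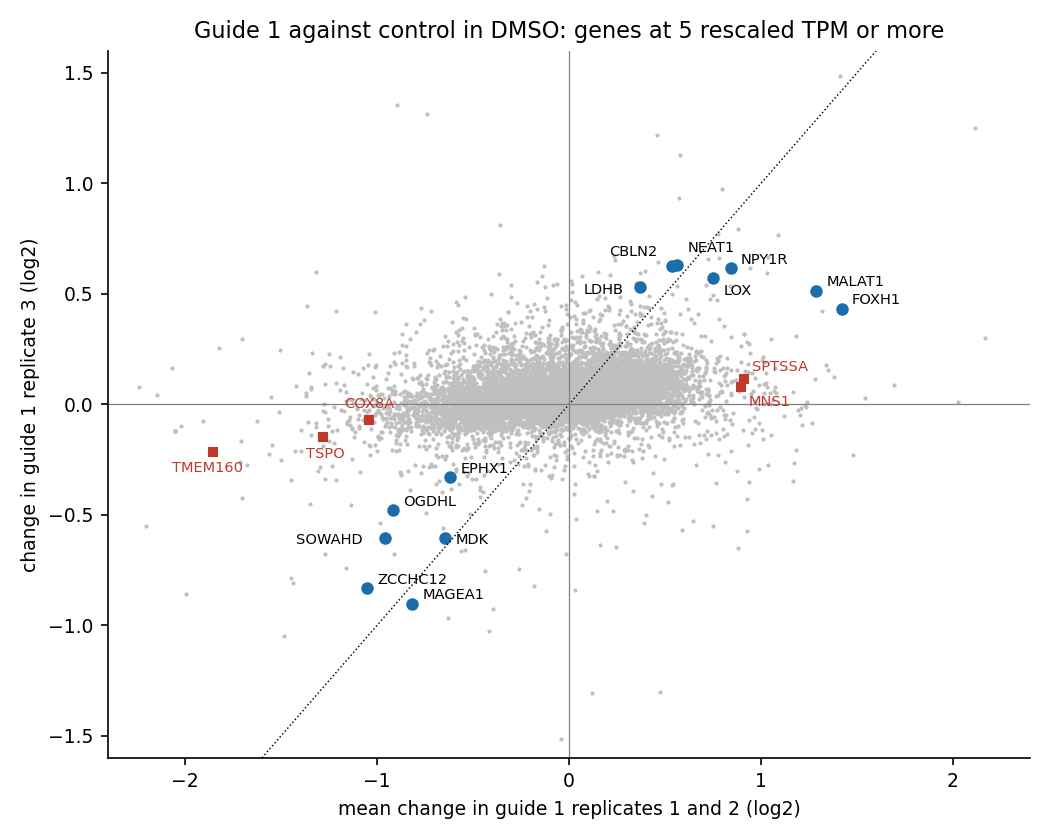
Change of each gene at 5 rescaled TPM or more (grey, 9929 genes, with 9 more outside the axes) in guide 1 replicate 3 against the mean change in replicates 1 and 2, both log2. The dotted line marks equal change. Blue circles are named genes that moved in all 3 libraries, and red squares are named genes at -0.21 to 0.11 in replicate 3.

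MAGEA1, ZCCHC12 and SOWAHD fell and NPY1R and LOX rose in all 3 libraries. They are the members of the 24 genes of largest change with at least 0.5 in each library, apart from the noncoding RNAs NR4A1AS and MALAT1. MAGEA1, a cancer-testis antigen (chromosome X, 153179285 to 153183880, plus strand), was at 8.12, 8.59 and 7.59 TPM in controls and 4.12, 4.20 and 3.87 TPM with guide 1. It fell by 0.85 (SE 0.05, adjusted p = 2.1e-06), and replicate 3 had the lowest value. ZCCHC12, a zinc-finger transcriptional coactivator (chromosome X, 118823790 to 118826968, plus strand), was at 7.87, 8.33 and 7.96 TPM in controls and 3.03, 3.71 and 4.08 TPM with guide 1. It fell by 0.98 (SE 0.09, adjusted p = 7e-05). SOWAHD, an ankyrin-repeat gene, was at 11.5, 10.7 and 13.5 TPM against 5.12, 6.14 and 7.43 TPM, and fell by 0.84 (adjusted p = 0.0024), or by 0.51 after GC correction. In each of these 3 genes the highest guide 1 library lay well below the lowest control.

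NPY1R, a receptor for neuropeptide Y (chromosome 4, 163323961 to 163344832, minus strand), was at 3.46, 4.03 and 3.43 TPM in controls and 8.02, 6.63 and 6.09 TPM with guide 1. It rose by 0.77 (SE 0.09, adjusted p = 0.00059). LOX, the lysyl oxidase that cross-links collagen and elastin (chromosome 5, 122063195 to 122078360, minus strand), was at 4.88, 4.87 and 5.32 TPM against 9.31, 8.94 and 7.94 TPM. It rose by 0.69 (SE 0.07, adjusted p = 0.00011). Both genes stayed called in every fit that left out 1 library, as did MAGEA1, ZCCHC12, SOWAHD and OGDHL. Apart from OGDHL, these genes were picked for their change in each library, so this adds no independent support. In the libraries labelled guide 2 in DMSO, against the same controls, the changes were 0.47 for OGDHL, -0.50 for MAGEA1, -1.81 for ZCCHC12, -2.31 for SOWAHD, -0.86 for NPY1R and -1.63 for LOX. In those libraries 43.8%, 46.1% and 45.6% of 9731 genes differed from controls by over 0.5. The shares were 25.9%, 9.31% and 0.76% in guide 1 replicates 1, 2 and 3.

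A further 9 genes were picked after their values were seen, because replicate 3 moved with the other libraries. CBLN2, a synaptic organiser of the cerebellin family, was at 7.80, 8.14 and 7.56 TPM in controls and 11.8, 11.8 and 12.6 TPM with guide 1. It rose by 0.56 (adjusted p = 2.1e-06), with every guide 1 library above every control. MDK, the secreted growth factor midkine, fell by 0.63 (adjusted p = 0.0018), from 16.7, 17.1 and 18.4 to 9.68, 11.9 and 11.1 TPM, and by 0.38 after GC correction. EPHX1, the microsomal epoxide hydrolase, fell by 0.52, and RASL11A, a small GTPase, fell by 0.49. CAPG, an actin-capping protein, fell by 0.97, from 2.62, 2.49 and 2.54 to 0.649, 0.760 and 1.05 TPM. The low genes PLA1A, a phospholipase of phosphatidylserine, and P2RY1, an ADP receptor, fell by 0.57 and 0.47. VTA1, a cofactor of endosomal sorting, fell by 0.27, and PLA2G2A, a secreted phospholipase, rose by 0.59.

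**Figure D4:**
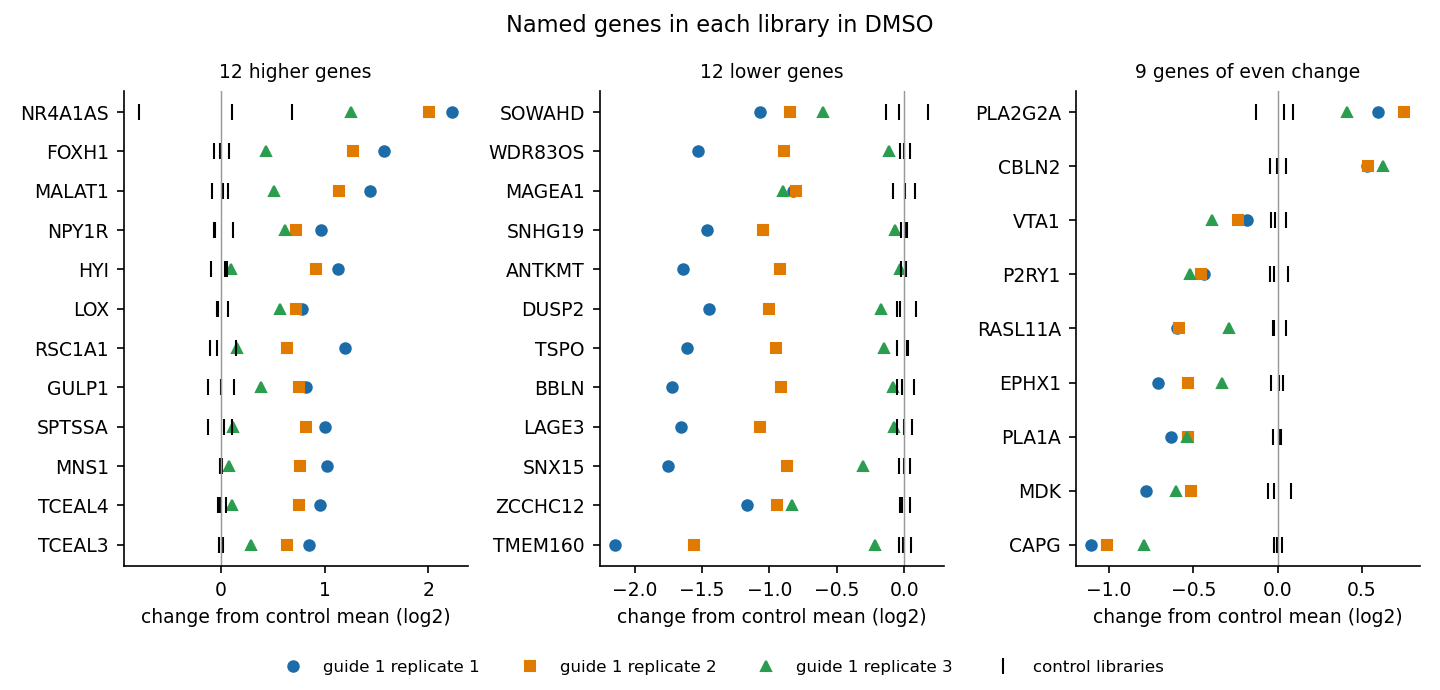
Change from the control mean (log2) in each guide 1 library (coloured symbols) and each control library (black ticks) for the 12 higher and 12 lower genes of largest change and the 9 genes picked after their values were seen. For TMEM160 the symbols spread from -2.14 to -0.21, and for MAGEA1 from -0.90 to -0.81.

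The other genes among the 24 of largest change were less even. NR4A1AS, an antisense RNA of the NR4A1 locus, rose by 1.83 (adjusted p = 0.025), but its controls spread from 0.657 to 3.61 TPM. MALAT1, an abundant nuclear RNA, was at 1944, 1880 and 1748 TPM in controls and 5024, 4073 and 2651 TPM with guide 1, and rose by 1.03 (adjusted p = 0.0061). FOXH1, a forkhead partner of SMAD proteins, rose by 1.09 (adjusted p = 0.012), with 21.0 TPM in replicate 3 against 16.2 TPM in the highest control. GULP1, an engulfment adaptor, and TCEAL3 rose by 0.65 and 0.59, and were 0.39 and 0.29 up in replicate 3. HYI, RSC1A1, SPTSSA, MNS1 and TCEAL4 rose by 0.60 to 0.71 with changes of only 0.08 to 0.15 in replicate 3. RSC1A1 overlaps another gene, so its reads cannot be assigned with certainty, and its call was lost after GC correction (0.52, adjusted p = 0.076).

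On the lower side, TMEM160 fell by 1.31, from 11.9, 11.6 and 12.5 to 1.94, 3.41 and 10.2 TPM. LAGE3, BBLN, TSPO, ANTKMT, SNHG19 and WDR83OS fell by 0.84 to 0.93, yet their changes in replicate 3 were -0.15 to -0.03. DUSP2, a phosphatase of MAP kinases, fell by 0.88, and SNX15, a sorting nexin, by 0.97, with -0.17 and -0.30 in replicate 3. TSPO is the outer-membrane cholesterol and drug-binding protein of mitochondria, and ANTKMT methylates the adenine nucleotide translocase. The median GC content was 62.6% for the 12 lower genes and 42.1% for the 12 higher genes. The ranges overlapped, at 50.5% to 72.2% and 38.6% to 65.2%, with FOXH1 the highest of the higher genes.

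Among respiratory chain and ATP synthase genes, more were lower than higher, and the list medians were near 0 in replicate 3. Of all genes tested, 23.9% were higher and 12.9% lower. Of 25 tested genes of complexes II to IV and cytochrome c, 13 were lower and 1 higher, 9 and 0 of them without overlap. The list's median change was -0.21, -0.16 and -0.02 in replicates 1, 2 and 3, beside 0.00, 0.02 and 0.05 over all genes tested. For complex I (37 genes, 15 lower and 4 higher) the medians were -0.22, -0.12 and -0.01, and for ATP synthase (18 genes, 9 lower and 1 higher) they were -0.13, -0.20 and -0.02. After GC correction the median fitted change went from -0.15 to -0.16 for complexes II to IV and cytochrome c. It went from -0.10 to -0.078 for complex I and from -0.11 to -0.18 for ATP synthase. COX8A, a cytochrome oxidase subunit, fell by 0.72, from 639, 611 and 645 to 258, 363 and 601 TPM. ATP5MC2 of the ATP synthase ring fell by 0.62, ATP5F1D by 0.52 and CYC1, cytochrome c1, by 0.48. NDUFA5 of complex I rose by 0.50. In replicate 3 these 4 genes were at -0.05, -0.18, -0.07 and 0.11. After GC correction their fitted changes were -0.51, -0.14, -0.23 and 0.24. POLRMT, the mitochondrial RNA polymerase, fell by 0.49, with -0.10 in replicate 3 and -0.21 after GC correction. Of 32 tested genes on its list, mitochondrial DNA expression, 10 were higher and 6 lower. No tested gene of the lists for complexes I to IV and ATP synthase passed with 0.25 or more in its least changed library.

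The TCA cycle list was close to all genes, of which 23.9% were higher and 12.9% lower. Of its 32 tested genes, 8 were higher and 4 lower, with medians of 0.06, 0.04 and 0.04 in the 3 libraries. PDK1, the kinase that restrains pyruvate dehydrogenase, rose by 0.22 (adjusted p = 0.0085), at 0.24, 0.20 and 0.21 in replicates 1, 2 and 3, but was at 0.085 after GC correction (adjusted p = 0.13). MDH2, malate dehydrogenase, fell by 0.23 but was -0.01 in replicate 3. Among 33 dioxygenases that use 2-oxoglutarate, 9 were higher and 3 lower, also near those shares, with a median of 0.00. KDM6A, a histone H3 demethylase, rose by 0.28, and ALKBH7, a mitochondrial AlkB homologue, fell by 0.76 with -0.10 in replicate 3. Of 24 genes of glutamine and 2-oxoglutarate amino acid metabolism, 4 were higher and 4 lower. SLC1A5, a glutamine transporter, fell by 0.51, with -0.05 in replicate 3.

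Glycolytic and hypoxia-responsive genes differed. Of 21 glycolysis genes, 2 were higher and 4 lower (23.9% and 12.9% of all genes), and the median went from -0.34 and -0.15 in replicates 1 and 2 to 0.09 in replicate 3. LDHB, the lactate dehydrogenase subunit that favours lactate oxidation (chromosome 12, 21635342 to 21757857, minus strand), was 1 of the 2 higher genes. It rose by 0.42 (SE 0.04, adjusted p = 7e-05), from 15.1, 15.1 and 15.4 to 19.86, 19.99 and 22.4 TPM, most in replicate 3. Of 17 hypoxia-response genes, 8 were higher and 0 lower, 7 of them without overlap, where 18.3% of all genes were higher without overlap. The list's median was 0.09, 0.19 and 0.16 in the 3 libraries. Its median fitted change was 0.17, and 0.079 after GC correction. LOX, described above, and BNIP3L, a mitophagy receptor that rose by 0.27, were among them.

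Ribosomal and cell-cycle list medians were farther from 0 in replicates 1 and 2 than in replicate 3. Beside the counts here stand 23.9% higher and 12.9% lower over all genes, and 18.3% and 7.04% without overlap. Of 85 cytosolic ribosomal protein genes, 39 were lower and 15 higher, 29 and 7 without overlap, with medians of -0.17, -0.15 and -0.03. RPS29 of the small subunit fell by 0.66, from 78.3, 76.0 and 78.3 to 39.9, 40.4 and 71.0 TPM. Of 78 mitochondrial ribosomal protein genes, 18 were lower and 15 higher, and MRPS12 fell by 0.63. Of 40 G2/M genes, 15 were higher and 10 lower, with medians of 0.21, 0.13 and -0.02. MKI67, the proliferation marker, rose by 0.31 and CDC20, the mitotic exit activator, fell by 0.44, with 0.08 and -0.07 in replicate 3. After GC correction MKI67 was at 0.27 (adjusted p = 0.058). Of 37 G1/S genes, 16 were lower and 5 higher, with medians of -0.14, -0.08 and -0.01, and MCM5 of the replicative helicase fell by 0.34. After GC correction the median fitted change went from 0.091 to -0.0041 for G2/M and from -0.065 to -0.078 for G1/S. For cytosolic ribosomal protein genes it went from -0.11 to -0.12.

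**Figure D5:**
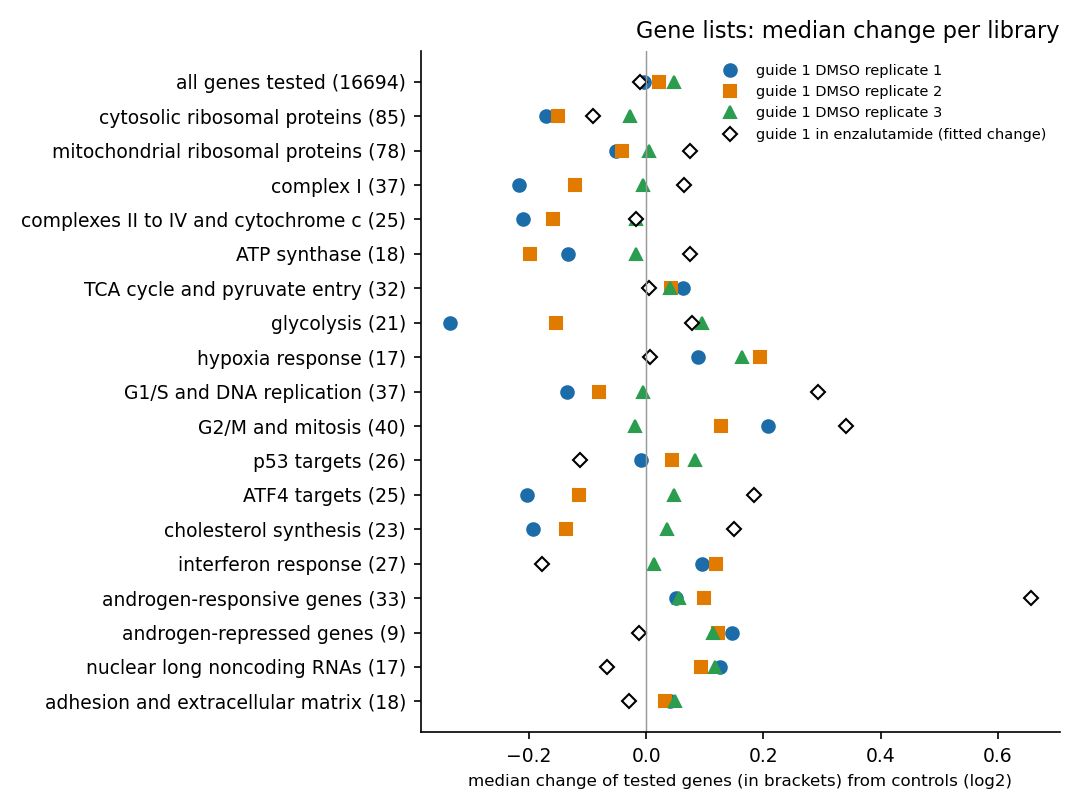
Median change (log2) over the tested genes of 18 lists and of all genes, for each guide 1 library in DMSO (coloured symbols) and for guide 1 in enzalutamide against its own controls (open diamonds). Ribosomal and respiratory chain lists lie below 0 in replicates 1 and 2 and at -0.03 to 0.01 in replicate 3, and the androgen-responsive list lies at 0.05 to 0.10 in DMSO and at 0.66 in enzalutamide.

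Among androgen-responsive genes more were higher than lower. Of 33 tested, 12 rose without overlap (18.3% of all genes did), 2 more passed as lower with overlapping libraries, and the median was 0.05, 0.10 and 0.06 in the 3 libraries, beside 0.00, 0.02 and 0.05 over all genes. STEAP2, a metalloreductase, rose by 0.39 and TMPRSS2 by 0.13 (adjusted p = 0.049). FKBP5, a cochaperone of steroid receptors, rose by 0.12 (adjusted p = 0.032), with 0.03 in replicate 3, and was at -0.00035 after GC correction (adjusted p = 0.99). KLK3, the gene for prostate-specific antigen, was at 964, 1004 and 1004 TPM in controls and 979, 1090 and 1250 TPM with guide 1 (0.15, adjusted p = 0.082). Of 9 genes repressed by androgen, 5 rose and 1 fell, all without overlap (18.3% and 7.04% of all genes). Their median fitted change was 0.13, and -0.0011 after GC correction, against 0.081 and 0.075 for the androgen-responsive list. CAMK2N1, an inhibitor of calmodulin-dependent kinase II, rose by 0.39, with 0.12 in replicate 3. OPRK1, the kappa opioid receptor, fell by 0.33 (adjusted p = 0.0018), at -0.29, -0.32 and -0.36 in replicates 1, 2 and 3.

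The cells kept luminal markers as a sum, while single markers moved both ways. The summed level of 10 luminal markers was 4657 to 4788 TPM in controls and 4804 to 5142 TPM with guide 1. Of 9 tested genes on the luminal list, 4 were higher and 3 lower. KRT18 went from 519.5, 505.5 and 524.4 to 388.0, 447.3 and 502.4 TPM. HOXB13 went from 705.3, 707.7 and 706.1 to 430.5, 561.4 and 711.4 TPM. FOXA1, a pioneer factor of luminal cells, rose by 0.29 and the keratin KRT8 fell by 0.22, which was -0.072 after GC correction (adjusted p = 0.15). All 5 basal markers and 6 endothelial markers were under 1 TPM in the 6 libraries, as were 7 of 8 leukocyte and 6 of 9 neuroendocrine markers. Of 8 fibroblast markers, 7 were under 1 TPM or not listed, and the sum was 16.98 to 17.95 TPM in controls and 18.1 to 21.0 TPM with guide 1. Of 17 tested epithelial and mesenchymal genes, 4 were higher and 4 lower (23.9% and 12.9% of all genes). FN1, fibronectin, fell by 0.28 (adjusted p = 0.011), at -0.32, -0.26 and -0.25 in replicates 1, 2 and 3. SNAI2, a repressor of E-cadherin, rose by 0.36, with 0.20 in replicate 3.

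Some nuclear noncoding RNAs rose in every library. Of 17 long noncoding RNAs on the list, 7 rose and 1 fell without overlap (18.3% and 7.04% of all genes), with medians of 0.13, 0.09 and 0.12. The list's median fitted change was 0.10, and 0.035 after GC correction. NEAT1, the scaffold of paraspeckles (chromosome 11, 65422774 to 65445540, plus strand), was at 224, 243 and 217 TPM in controls and 334, 339 and 353 TPM with guide 1. It rose by 0.58 (SE 0.12, adjusted p = 0.0085), evenly over the 3 libraries. KCNQ1OT1, an imprinted antisense RNA, rose by 0.39. The part of RNA quality in this was not tested. Of 26 p53 targets, 8 were higher and 1 lower, 6 and 0 without overlap, where 18.3% of all genes were higher without overlap. The medians of -0.01, 0.04 and 0.08 were close to the 0.00, 0.02 and 0.05 of all genes. ZMAT3, an RNA-binding p53 target, GADD45A and PLK2 rose by 0.34, 0.28 and 0.26, at 0.24, 0.10 and 0.23 in replicate 3. After GC correction PLK2 was at 0.10 (adjusted p = 0.060). Of 22 tested immediate early genes, 4 were higher and 4 lower (23.9% and 12.9% of all genes). FOS, 1 of the higher genes, rose by 0.44, from 3.30, 4.41 and 5.52 to 5.70, 6.08 and 7.05 TPM. THBS1, a matrix glycoprotein at under 1 TPM, rose by 0.28.

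The same guide in enzalutamide, with controls of its own, gave a different set of values. There 5516 genes (33.0%) passed, 2705 higher (16.2%) and 2811 lower (16.8%), and 5442 (32.6%) passed without overlap. Of the 321 genes that moved by at least 0.25 in each DMSO library, 48 were called in the same direction in enzalutamide and 54 in the opposite one. The change differed between the conditions in 5002 genes, 2020 higher (12.1%) and 2982 lower (17.9%) in enzalutamide. OGDHL, ZCCHC12, SNX15, DUSP2, SOWAHD and IER5L, a gene of the immediate early response family, were the 6 genes of largest DMSO change, at 5 TPM or more and apart from pseudogenes, that moved the same way without overlap in both, and all 6 fell. Apart from ZCCHC12 (50.9%), they were at 58.6% to 66.4% GC. Changes with guide 1 in enzalutamide also correlated with GC, at a rho of -0.25, -0.18 and -0.44 (0.39, 0.23 and -0.54 in controls). The part of GC content in these falls was not tested. SOWAHD fell by 0.70 and IER5L by 0.65 in enzalutamide, ZCCHC12 by 0.26 from a low level, SNX15 by 0.80 and DUSP2 by 0.66. Among other genes described above, LDHB rose by 0.50, CBLN2 by 0.37 and GULP1 by 1.33, while EPHX1 fell by 0.62 and MDK by 1.64.

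Other genes moved oppositely or far more in enzalutamide. MAGEA1, lower in DMSO, was at 5.27, 5.12 and 4.53 TPM in enzalutamide controls and 82.9, 80.3 and 81.0 TPM with guide 1, a rise of 3.79 (difference of changes 4.63, adjusted p = 1.8e-14). KLK3 rose by 3.92 there, from 164, 168 and 157 to 2575, 2487 and 2368 TPM. TMEFF2, an androgen-regulated membrane protein, rose by 3.79 in enzalutamide and 0.17 in DMSO. ADAMTS1, a matrix protease, rose by 3.40 and 0.18, PTGFR, a prostaglandin receptor, by 2.99 and 0.30, and TNFRSF19 by 2.84 and 0.16. After GC correction the DMSO calls of TMEFF2 (-0.022), PTGFR (0.039), TNFRSF19 (0.067) and SYT4 (0.21) were lost, with adjusted p of 0.72, 0.43, 0.33 and 0.052. SYT4, a synaptotagmin, rose by 0.33 in DMSO and fell by 2.49 in enzalutamide. PLA2G2A rose in DMSO and fell by 1.06 in enzalutamide. NEAT1 (0.06) and NPY1R (0.06) did not pass in enzalutamide, and their groups overlapped there.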

How the data were processed

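RNA of 18 samples was made into stranded mRNA libraries with a KAPA kit and sequenced in pairs, per the labels' protocols. STAR and GRCh38 are named, per the submitters' processing notes. The counter and its annotation were not given in the sources used here. Per gene, the authors deposited TPM, so depth is unknown. Rows without a gene name (10345) and 37 MT- rows were dropped, 69 rows of 3 repeated symbols were left out, 32 symbols with up to 4 rows were summed, and each library was rescaled. Genes at 1 TPM or more in 3 libraries were tested with limma 3.58.1 (R 4.3.3) on log2(TPM + 1), all 18 libraries, 6 group means, 12 residual degrees of freedom, trended prior. Positions, GC and coding sequences came from GENCODE 29.

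The members, gene lists and tests were chosen with earlier results of these data known. The rule for named genes took OGDHL, OGDH and PPP1R12C, the 12 higher and 12 lower genes of largest change without overlap at 5 TPM or more (passing over pseudogenes, near-identical copies and locus-style names), up to 4 members of each of 43 lists without overlap (6 where over 30% were), of which a part is printed, 6 genes held in both conditions, 6 with the largest difference between conditions, and KLK3, FKBP5, TMPRSS2, NEAT1 and MALAT1. Some items the rule names are not reported here. The thresholds of 0.25 and 0.5 on the least changed library, the GC correction and the fit without guide 2 DMSO libraries were chosen after seeing the data. The fit was tested on simulated data with equal spread in all groups. That test does not cover the wider spread or the GC-linked shift of the guide 1 libraries in DMSO. Alternatives are in the closing section.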

Additional observations from a re-analysis of the deposited data

Results flagged for a closer look

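The guide 1 change in enzalutamide differed from that in DMSO, by limma's interaction term (adjusted p under 0.05), in 5002 genes, 2020 higher and 2982 lower. Among the 87 genes named or tabulated for the text it differed in 54, 23 higher and 31 lower in enzalutamide. Of all genes tested, 12.1% were higher and 17.9% lower. Many of the 87 genes were picked for their change in DMSO, which enters this difference, and some for the size of the difference itself. Their counts therefore cannot be weighed against the shares of all genes. Values are the enzalutamide change minus the DMSO change (log2).

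The difference was above 0 for DHTKD1 0.21, MRPS36 0.26, GULP1 0.68, TMEM160 1.31, ZCCHC12 0.72, MAGEA1 4.63, TMEFF2 3.62, ADAMTS1 3.23, PTGFR 2.69, TNFRSF19 2.68, KLK3 3.76 and FKBP5 0.58. It was also above 0 for TMPRSS2 0.89, POLRMT 0.62, SNAI2 0.47, CDC20 0.63, MCM5 0.60, SLC1A5 1.38, THBS1 0.24, CAPG 0.53, PLA1A 0.77, P2RY1 0.42 and VTA1 0.24. MAGEA1, KLK3, TMEFF2 and ADAMTS1 had the highest values among these. ZCCHC12, CAPG, PLA1A, P2RY1 and THBS1 averaged under 1 TPM in enzalutamide in both groups, where the scale understates changes.

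The difference was below 0 for OGDHL -0.60, NR4A1AS -2.47, FOXH1 -1.51, MALAT1 -1.23, NPY1R -0.71, LOX -0.26, TCEAL4 -0.81, TCEAL3 -1.43, SYT4 -2.82 and NEAT1 -0.52. It was also below 0 for BNIP3L -0.56, CAMK2N1 -1.45, OPRK1 -1.43, FN1 -1.28, ZMAT3 -0.66, GADD45A -0.79, PLK2 -0.64, KDM6A -0.62, PDK1 -0.19, KCNQ1OT1 -0.80 and FOS -0.66. Further values below 0 were those of CBLN2 -0.19, MDK -1.01, RASL11A -0.28, PLA2G2A -1.64, BEX1 -1.12, BEX2 -0.74, BEX3 -0.34, BEX4 -1.12, BEX5 -1.10 and TCEAL2 -1.37. OGDHL is among them, since it fell further in enzalutamide. NPY1R and LOX averaged under 1 TPM in enzalutamide in both groups, where the scale understates changes. LOX was at 0.20 TPM in enzalutamide controls and 0.61 TPM with guide 1. With a pseudocount of 0.1 its difference turned to 0.47.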

How the results depend on the processing

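Main counts were 6140 genes in DMSO, 5516 in enzalutamide and 5002 for the difference. On TPM as deposited they were 7946 (35 higher, 7911 lower), 1339 (383 higher, 956 lower, 1337 without overlap and 1058 at 0.25) and 1109 (855 higher, 254 lower). There these rises turned negative: DLD -0.27, TMEFF2 -0.22, ADAMTS1 -0.30, SYT4 -0.12, PTGFR -0.12, TNFRSF19 -0.29, KLK3 -0.34, FKBP5 -0.30, TMPRSS2 -0.31, LDHB -0.033, BNIP3L -0.15, STEAP2 -0.089, CAMK2N1 -0.055, FOXA1 -0.21, SNAI2 -0.080, ZMAT3 -0.013, GADD45A -0.19, PLK2 -0.18, MKI67 -0.17, KDM6A -0.13, PDK1 -0.22, BEX1 -0.022, BEX2 -0.10, BEX3 -0.19 and BEX5 -0.099. NEAT1 in enzalutamide became -0.025 and the CBLN2 difference 0.17. The 321 DMSO genes at 0.25 became 581 with a pseudocount of 0.1, 98 with 5 and 210 with a filter at 5 TPM, and the enzalutamide count at 0.25 became 1412 with a pseudocount of 5. With gene-by-gene array weights (the REML weights did not converge) the counts were 11747 (6595 higher, 5152 lower) in DMSO and 9740 (4370 higher, 5370 lower) for the difference.

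After GC correction, added after seeing the data, 2422 genes were higher of 4604, OGDH was 0.0044, PPP1R12C 0.13, TMEFF2 -0.022, FKBP5 -0.00035 and NPY1R in enzalutamide -0.031. Of 82 named genes called in DMSO, 11 lost the call under it (DLD, RSC1A1, TMEFF2, SYT4, PTGFR, TNFRSF19, FKBP5, KRT8, PLK2, MKI67 and PDK1), and 17 more kept it with a change smaller by over 1.5 times. Fits of the 6 DMSO libraries alone called 0 genes by limma: 3530 had an unadjusted p under 0.05, and 3703 with GC correction. With the replicate block it was 0 in DMSO (3013 unadjusted), 7045 in enzalutamide and 2954 for the difference (1130 higher, 1824 lower). The replicate numbers were not taken as pairs: same-numbered deviations correlated at 0.0535, 0.0510 and 0.0831 in DMSO and 0.0891, 0.0324 and 0.0780 in enzalutamide, each library best with its own number. Over 10066 genes at 5 TPM or more they were 0.0511, 0.0367 and 0.158 in DMSO, where replicate 1 matched control 2 best (0.12), and 0.346, 0.16 and 0.254 in enzalutamide.

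With replicate 3 alone, 56 genes were called (41 higher, 15 lower, 47 at 0.25), OGDH was 0.040, PPP1R12C 0.15 and DHTKD1 0.055. Leaving out 1 library gave 601 to 9775 genes in DMSO (499 to 5104 higher, 102 to 4671 lower, 601 to 9690 without overlap, 162 to 4387 at 0.25): 792 without control 1, 637 without control 3, 897 without guide 1 replicate 1, 601 without replicate 2 and 9775 without replicate 3. For the difference it gave 3969 to 8373 (1600 to 4071 higher, 2326 to 4302 lower). Over these fits DHTKD1 ran from -0.11 to 0.017 (without guide 1 replicate 1), MRPS36 from -0.049 to 0.0052 (without control 3), NEAT1 in enzalutamide from -0.093 (without control 1 there) to 0.20, and the LOX difference 0.47 with a pseudocount of 0.1. Of 82 named genes called in DMSO, 33 stayed called in every such fit. TPM keeps no depth, so counting error is unknown.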

Other observations

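Genes of the BEX and TCEAL families, small related proteins encoded together on the long arm of the X chromosome, were higher with guide 1 in DMSO. This group was chosen after its values were seen. All 5 tested BEX genes rose without overlap (18.3% of all genes did), by 0.30 to 0.49, with family medians of 0.55, 0.38 and 0.23 in replicates 1, 2 and 3. On TPM as deposited, BEX1, BEX2, BEX3 and BEX5 were below 0. BEX5 was at 29.1, 26.05 and 27.3 TPM in controls and 37.2, 35.8 and 34.4 TPM with guide 1. Of 7 tested TCEAL genes, 6 were higher (23.9% of all genes), 4 of them without overlap (18.3% of all genes). The TCEAL family medians were 0.62, 0.44 and 0.11 in replicates 1, 2 and 3. On TPM as deposited, 3 of the 7 were below 0. TCEAL2, a low gene, rose by 0.35.

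In enzalutamide 4 of 5 BEX genes and 3 of 7 TCEAL genes were lower with guide 1 (16.8% of all genes), and 0 were higher (16.2%). The family medians there were -0.62 and -0.36. BEX5 fell there by 0.73 and TCEAL2 by 1.02.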
